A study of Mus musculus with 10 samples.

Results

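The zinc and copper transporters and metallothioneins are 36 of the 20295 genes counted in interscapular brown fat, a mouse tissue that burns fuel to make heat. They were chosen by gene symbol, as all genes of the Slc30a, Slc39a, Slc31a and metallothionein families together with Mtf1, Mtf2, Atp7a, Atp7b, Atox1 and Ccs, whatever their values. Of the 36 genes, 26 had enough reads to be tested and 10 did not. The count columns name every library WT (wild type), and the labels name no genetic change. All mice were single-housed males of the C57BL/6JBomTac strain, 8 weeks old, on chow with free access to food and water. Of these, 5 control mice were kept at 22 °C and 5 cold-exposed mice spent 3 days at 4 °C. The groups follow the sample titles, source names and treatment protocol, since the treatment tag of the cold samples names room temperature beside 4 °C. Columns of the count table that lack the word for cold were matched to the control mice by replicate number. Each mouse gave 1 poly-A selected library, and the comparison asks which transcripts differ after the cold exposure. The control mice were at room temperature, so the comparison is with that temperature and not with one at which a mouse needs no extra heat.

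Zinc is bound by a large number of enzymes and transcription factors, and cells keep its free concentration very low. Most ZnT proteins of the SLC30 family move zinc out of the cytosol, across the plasma membrane or into organelles. ZnT9 is known for moving zinc out of mitochondria instead, and the ZIP proteins of the SLC39 family move zinc into the cytosol. Metallothioneins are small proteins whose cysteines bind zinc and copper, and their genes are switched on by zinc through the transcription factor MTF-1 and also by glucocorticoids. Copper enters cells through CTR1 (Slc31a1) and is handed by chaperones to copper pumps and to enzymes, among them cytochrome c oxidase of the respiratory chain, which brown fat holds in large amounts.

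Library totals were 4446163 to 5776905 counts in the control group and 5676963 to 6923932 in the cold group. Levels are given in CPM, a gene's count relative to the scaled size of its library, as single libraries or as the mean ± SD of the 5 in a group. A positive log2 fold change means higher in cold, and each comes with a standard error (SE) from edgeR's quasi-likelihood test. Adjusted p-values are Benjamini-Hochberg values over all 11229 genes tested. A gene is called where its adjusted p is under 0.05. The tissue label was checked against 7 brown adipocyte markers, all of them measured, whose summed CPM was 13083 to 15557 in control and 21775 to 25154 in cold libraries. Of these 7, 2 were called higher and 1 lower, beside 10.2% and 9.14% of all genes tested, so the sum does not speak for each marker. For 7 markers of adipocytes in general the sums overlapped between the groups, with 0 called higher and 2 lower. The part of these markers in the results below was not tested. In bulk tissue more RNA per cell and more cells of a type cannot be told apart. Of the markers of pancreatic islet and acinar cells, which hold much zinc, 5 of 6 had no count in any library. Control replicate 2 and cold replicate 5 stood apart from the rest of their groups, with root mean square deviations from the group mean of 0.422 and 0.385 on the log2 scale against 0.190 to 0.335 in the other 8 libraries. Both are included unless a value is said to leave them out.

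The metallothioneins are shown first as sequence, because their make-up is the reason for their role and because the similarity of the pair bears on how their reads can be told apart. Below are the coding sequences of Mt1 and Mt2 without the stop codon, from GENCODE M21 on GRCm38, with every cysteine codon (TGC or TGT) in capitals.
Mt1: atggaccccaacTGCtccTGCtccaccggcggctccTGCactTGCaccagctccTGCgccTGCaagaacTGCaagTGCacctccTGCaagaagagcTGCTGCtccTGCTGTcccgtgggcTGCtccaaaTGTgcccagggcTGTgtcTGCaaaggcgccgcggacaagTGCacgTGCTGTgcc
Mt2: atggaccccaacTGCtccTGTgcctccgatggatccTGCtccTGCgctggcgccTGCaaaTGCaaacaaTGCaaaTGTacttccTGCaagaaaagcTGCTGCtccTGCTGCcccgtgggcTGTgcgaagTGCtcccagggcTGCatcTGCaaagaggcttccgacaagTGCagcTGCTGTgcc
Both have 61 codons, of which 20 (32.8%) encode cysteine. The pair has the same base at 145 of 183 coding positions (79.2%), and the longest run of identical bases is 20, in the coding sequence and over the whole annotated transcript.

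MTF-1 binds the metal response element, whose core was searched here as TGCACNC or TGCGCNC on both strands. The 250 bases before the annotated start are printed below for 3 members, from RefSeq on GRCm38.p6, with matches to the core in capitals. These 3 are the tested members of the list of zinc-responsive genes named for MTF-1 that is read further below. Slc30a10 is on that list too but had 0 counts in all libraries. Its window is not printed and held 3 matches, all before the start.
Mt1 (chr8:94178839-94179088, plus strand): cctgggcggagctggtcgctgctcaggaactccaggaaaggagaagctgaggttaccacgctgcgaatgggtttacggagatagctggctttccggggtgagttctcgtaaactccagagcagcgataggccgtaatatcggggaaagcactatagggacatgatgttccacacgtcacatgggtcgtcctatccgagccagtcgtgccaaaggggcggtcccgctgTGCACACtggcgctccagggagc
Mt2 (chr8:94172368-94172617, plus strand): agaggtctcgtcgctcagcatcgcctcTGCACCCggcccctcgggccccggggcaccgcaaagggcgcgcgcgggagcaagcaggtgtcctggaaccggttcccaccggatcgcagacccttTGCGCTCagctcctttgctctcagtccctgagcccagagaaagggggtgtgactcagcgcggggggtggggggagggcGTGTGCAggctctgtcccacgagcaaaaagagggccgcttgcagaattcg
Slc30a1 (chr1:191906531-191906780, plus strand): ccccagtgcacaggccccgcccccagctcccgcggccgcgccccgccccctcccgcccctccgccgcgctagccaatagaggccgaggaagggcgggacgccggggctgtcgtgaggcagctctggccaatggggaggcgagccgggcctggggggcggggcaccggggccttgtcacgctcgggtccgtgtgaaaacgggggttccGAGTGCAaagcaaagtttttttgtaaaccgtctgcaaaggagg
With the 50 bases after the start included, the window of Mt1 held 3 matches, that of Mt2 4 and that of Slc30a1 2. Of these, 2 of Mt1, 1 of Mt2 and 1 of Slc30a1 reached past the start and are not marked above. The windows follow the annotated start. Where transcription begins in brown fat was not examined, and bases outside the windows were not searched. Of all 32851 such 300-base windows, 8444 (25.7%) held at least 1 match and 647 (1.97%) at least 3. Among the members, 20 of 37 windows, of 31 genes, held at least 1 (54.05%) and 4 held at least 3. Ccs, Slc30a8, Slc39a4, Slc39a6 and Slc39a14 had no entry in the promoter table. A match is a description of these letters and not a binding site.

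After cold exposure, 1 of the 26 tested members was called higher (Slc30a9) and 0 were called lower by edgeR. DESeq2 also called Slc30a9 alone, and limma-voom called Slc30a9 higher and Mt2 lower. Over all genes tested, 10.2% were called higher and 9.14% lower, beside 1 and 0 of the 26 members. At an unadjusted p under 0.05, 3 members were higher and 5 lower, together 8 of 26, where 3827 of all genes (34.1%) passed. Tested members whose cold libraries all lay above all control libraries numbered 0, and those with all cold libraries below also 0, beside 7.39% and 6.57% of all genes. The median log2 fold change was -0.01 over the tested members and -0.02 over all genes tested. The 95% interval of the fold change lay wholly within 1.5-fold either way for 18 of the 26, a limit chosen after the values were seen. For the other 8 (Mt1, Mt2, Mtf1, Slc39a2, Slc39a6, Slc39a8, Slc39a10 and Slc39a14) the interval reached past 1.5-fold.

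**Figure D1:**
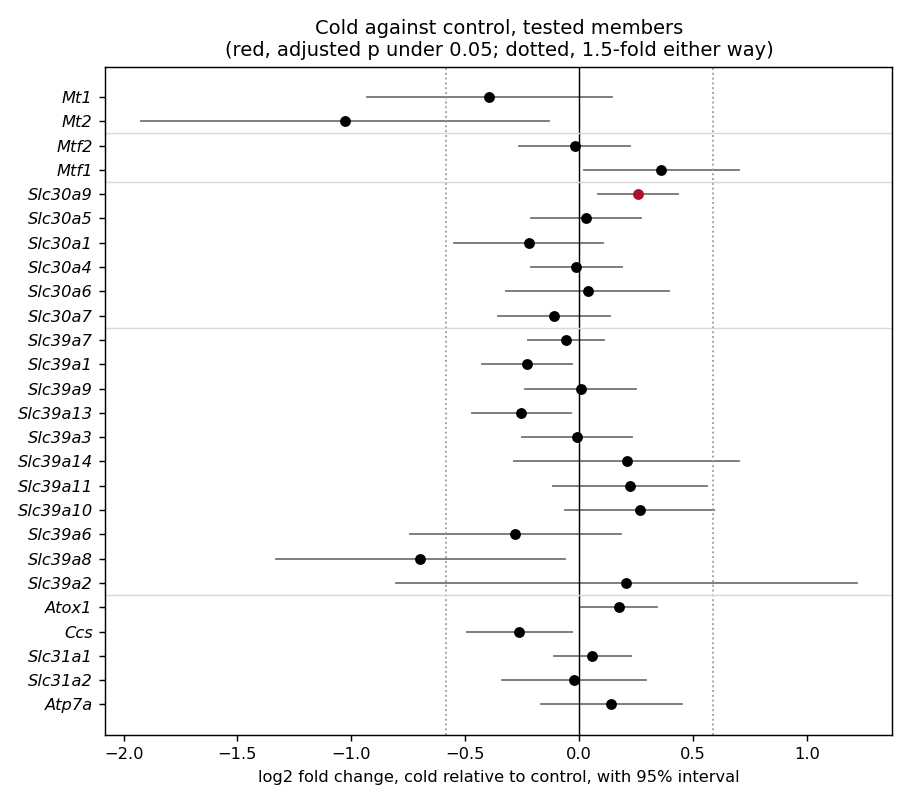
Log2 fold change of cold relative to control (x axis) for the 26 tested genes (y axis), with 95% intervals, grouped as metallothioneins, metal-response factors, SLC30, SLC39 and copper genes. Slc30a9, in red, is the 1 gene called at an adjusted p under 0.05, and Mt2 has the lowest point, -1.03, with an interval from -1.92 to -0.13.

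The levels of the members spanned a wide range when compared per length. Dividing CPM by the kilobases over which reads were counted, Mt1 was at 574 ± 209 CPM per kb in control libraries, the copper chaperone Atox1 at 281 ± 18.9 and Mt2 at 246 ± 106. The superoxide dismutase chaperone Ccs followed at 54.2 ± 9.02, then Slc30a9 at 46.6 ± 3.26 and Slc39a7 at 42.6 ± 2.98. The levels of Atox1 and Mt2 differed by less than the SD of Mt2, and those of Ccs and Slc30a9 by less than the SD of Ccs. Slc39a2 had the lowest level of the tested members, at 0.654 ± 0.442 CPM per kb.

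**Figure D2:**
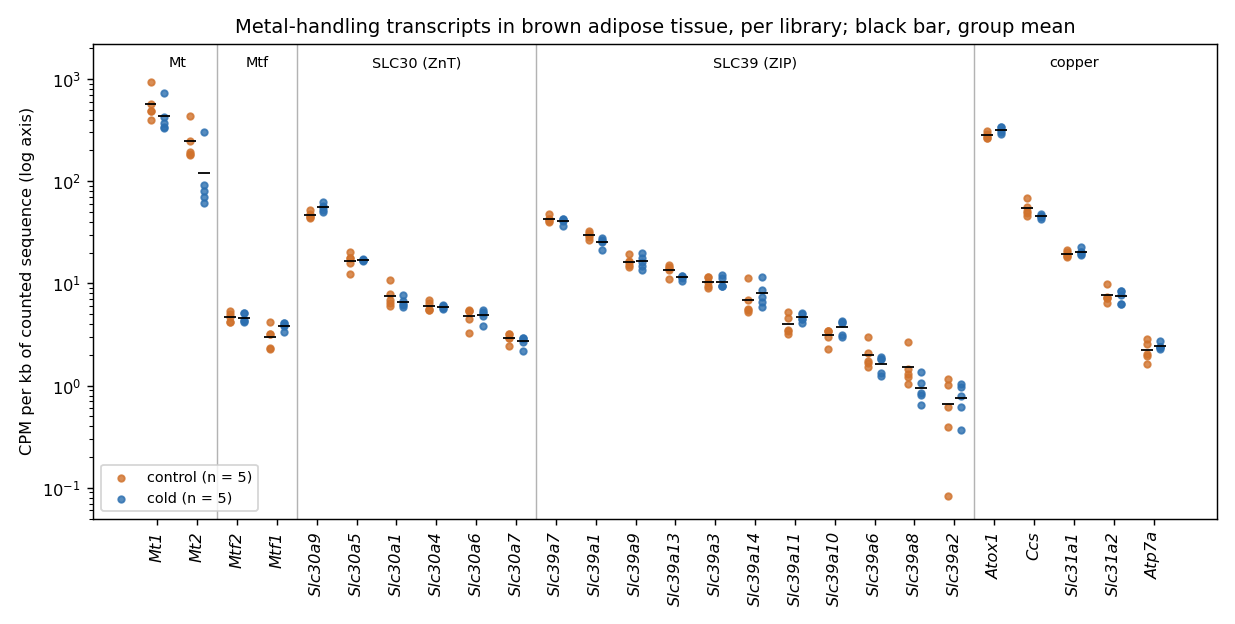
Level of each tested gene in CPM per kb of counted sequence (y axis, log scale) in each control and cold library, with a black bar at the group mean. Mt1, Atox1 and Mt2 lie highest, and the control and cold points overlap for every gene.

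The metallothioneins Mt1 and Mt2 had lower mean levels in cold than in control libraries, and neither was called over all 5 libraries a group. Mt2 (chromosome 8, 96696518 to 96697467 in mm9) was at 100, 239, 106, 136 and 102 CPM in control replicates 1 to 5 and at 34.3, 44.7, 38.8, 51.5 and 169 CPM in cold replicates 1 to 5. Cold replicates 1 to 4 lay below every control library, and cold replicate 5 lay above 4 of the 5. The mean was 137 ± 59.1 CPM for control and 67.6 ± 56.8 for cold mice, and the fitted log2 fold change was -1.03 (SE 0.41, adjusted p = 0.0997). Without control replicate 2 the log2 fold change of Mt2 was -0.73 (adjusted p = 0.196), without cold replicate 5 it was -1.70 (adjusted p = 0.000733), and without both it was -1.40 (adjusted p = 1.4e-05). With all 10 libraries, limma-voom called Mt2 at an adjusted p of 0.0321 and DESeq2 did not (adjusted p = 0.154). In the authors' deposited table Mt2 has a log2 fold change of -1.02 with an adjusted p of 0.0324, and it is the 1 member called there. That table lists 25 members, 0 called higher and 1 lower, beside 10.7% and 9.07% of its 11241 genes.

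Mt1 (chromosome 8, 96702989 to 96704227) was at 213, 504, 265, 312 and 263 CPM in control replicates 1 to 5 and at 178, 183, 231, 202 and 391 CPM in cold replicates 1 to 5. Control replicate 2 was the highest of its group and cold replicate 5 the highest of its own, and the groups overlapped. The means were 311 ± 113 and 237 ± 88.5 CPM, and the log2 fold change was -0.39 (SE 0.25, adjusted p = 0.289). The 95% interval ran from -0.93 to 0.14 on the log2 scale. Without control replicate 2 the value for Mt1 was -0.16 (adjusted p = 0.629), without cold replicate 5 it was -0.65 (adjusted p = 0.0404), and without both it was -0.41 (adjusted p = 0.0185).

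Mt1 and Mt2 were both highest in control replicate 2 and cold replicate 5 of their groups, but the ratio between them was not constant. The ratio of Mt1 to Mt2 counts per base was 2.18, 2.16, 2.55, 2.35 and 2.64 in control replicates 1 to 5. In cold replicates 1 to 5 it was 5.32, 4.20, 6.11, 4.03 and 2.38. Cold replicates 1 to 4 lay above every control library, and cold replicate 5 lay among the controls. The means were 2.38 ± 0.217 and 4.41 ± 1.42 (SD, n = 5), and this ratio was examined after the values of both genes were known, so no test is given.

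**Figure D3:**
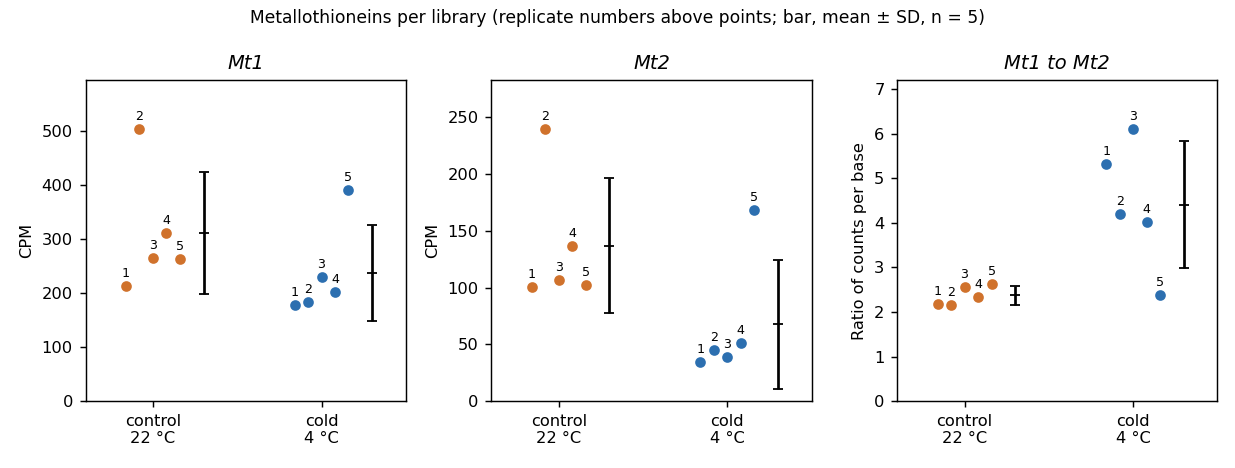
Mt1 and Mt2 in CPM and the ratio of their counts per base (y axes) in each library, with replicate numbers above the points and a bar for the mean ± SD of 5 libraries. Control replicate 2 (504 and 239 CPM) and cold replicate 5 (391 and 169 CPM) are the highest of their groups, and the ratio of cold replicate 5, 2.38, lies within the range of the controls.

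The other metallothioneins gave almost no reads. Mt3, the form known from brain, had 1 count over all control libraries and 5 over all cold libraries, and Mt4, the form of stratified epithelium, had 0 in both. A count of 0 allows up to 0.120 CPM over the control group and 0.0980 over the cold group (3 counts of the summed reads, for counting error only).

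The excess of control replicate 2 and cold replicate 5 was not limited to Mt1 and Mt2. Against the median of the other 4 libraries of its group, Mt2 was higher by 1.20 in control replicate 2 and by 2.01 in cold replicate 5 on the log2 scale, and Mt1 by 0.93 and 1.02. Slc39a14, a ZIP protein that carries zinc, iron and manganese, was higher by 1.03 and 0.73, and these 3 were the members above 0.5 in both libraries (11.5% of 26, beside 1.59% of all genes tested). Slc39a8 was higher by 1.05 and 0.33, and Slc30a1 by 0.70 and 0.30. Of the 11 tested genes of the glucocorticoid-responsive list that are no members, 6 were above 0.5 in both libraries (Fkbp5, Zbtb16, Per1, Tsc22d3, Klf9 and Errfi1). This list was drawn up with earlier results of these data known, so its count is not independent support. Fkbp5, which encodes a co-chaperone of the glucocorticoid receptor, was at 47.1 CPM in control replicate 2, with the other controls at 4.60 to 8.67, and at 18.9 CPM in cold replicate 5, with cold replicates 1 to 4 at 4.98 to 6.82. Zbtb16, a transcriptional repressor, was higher by 2.84 and 2.26 on the log2 scale, Per1, a clock gene, by 2.10 and 1.58, and Tsc22d3, which encodes GILZ, by 1.41 and 0.71. The other 5 were not above 0.5 in both: Sgk1, a kinase gene, differed by 1.58 and 0.09, Cebpd, a transcription factor gene, by 1.10 and 0.15, and Pdk4, an inhibitor of pyruvate oxidation, by 0.37 and -0.51. Dusp1, a phosphatase gene, differed by 0.22 and -0.02, and Angptl4, an inhibitor of lipoprotein lipase, by 0.10 and -1.05. Cell type markers also set these libraries apart. In cold replicate 5 the summed CPM of 6 fibroblast markers, all measured, was 250, with cold replicates 1 to 4 at 655 to 888, and that of 7 macrophage markers was 70.1, with the others at 136 to 359. In control replicate 2 the fibroblast sum was 379, with the other controls at 437 to 587, and the macrophage sum, 95.1, lay within their range of 90.5 to 205. Its sums of endothelial and mural cell markers, 708 and 613, were the highest of the controls, the others lying at 541 to 661 and 383 to 472. The brown adipocyte sum of control replicate 2, 15557, was the highest as well, with the other controls at 13083 to 14484. So was its erythroid sum, 18.6, with the others at 8.60 to 11.5, while its neuron sum, 3.14, was the lowest, with the others at 4.07 to 5.39. What part these genes and markers have in the metallothionein values was not tested.

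**Figure D4:**
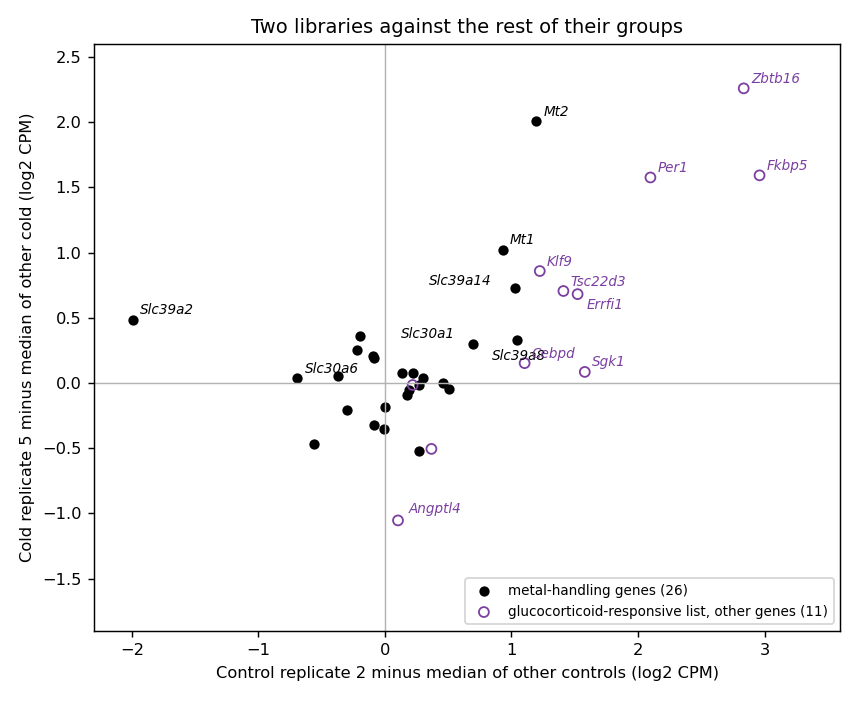
Log2 CPM of control replicate 2 minus the median of the other controls (x axis) against the same for cold replicate 5 in its group (y axis), for the 26 tested members (black) and 11 other genes of the glucocorticoid-responsive list (open). Mt2, Mt1 and Slc39a14 are the members above 0.5 on both axes, on the side where Fkbp5, Zbtb16 and Per1 lie.

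The metal-response factors were not called. Mtf1, which encodes the zinc sensor MTF-1 (chromosome 4, 124479793 to 124527044), was at 30.5, 23.1, 23.2, 16.5 and 16.9 CPM in control replicates 1 to 5 and at 24.2, 30.3, 28.5, 28.1 and 29.9 CPM in the cold ones. Control replicate 1 lay above every cold library and the other 4 controls lay below every one. The log2 fold change was 0.36 (SE 0.16, adjusted p = 0.124), and without control replicate 1 it was 0.50 (adjusted p = 0.0217), a call. The gene span of Mtf1 overlaps 1110065P20Rik on the opposite strand by 316 bases, and no strand setting of the counting is known. No other member overlaps another gene of the table. Mtf2, named as a metal-response factor but known as a polycomb protein that binds histone H3, differed by -0.02 (SE 0.11, adjusted p = 0.921).

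In the SLC30 family, 6 of 10 members were tested, 1 was called higher and 0 lower, with a median log2 fold change of 0.01. Slc30a9, which encodes ZnT9, known for moving zinc out of mitochondria (chromosome 5, 67698196 to 67747384), was at 152, 149, 176, 154 and 163 CPM in control replicates 1 to 5. In cold replicates 1 to 5 it was at 170, 190, 180, 195 and 214 CPM. Control replicate 3 lay above cold replicate 1, and the other libraries of the 2 groups did not overlap. The gene rose from 159 ± 11.1 to 190 ± 16.3 CPM, by 0.26 on the log2 scale (SE 0.08, adjusted p = 0.0425, 95% interval 0.08 to 0.43). When libraries were left out 1 at a time, the call was kept 2 times of 10 (without control replicate 3 and without cold replicate 1), in the other 8 fits the adjusted p was 0.0631 to 0.0902, and without both libraries that stood apart it was 0.114 (log2 fold change 0.18). In the authors' deposited table its adjusted p is 0.105.

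The other ZnT genes were not called. Slc30a5 and Slc30a6, whose products form a pair that supplies zinc to enzymes of the secretory pathway, differed by 0.03 (SE 0.11, adjusted p = 0.881) and 0.04 (SE 0.17, adjusted p = 0.897). Slc30a7, a transporter of the Golgi, differed by -0.11 (SE 0.11, adjusted p = 0.530), and Slc30a4, of endosomal vesicles, by -0.01 (SE 0.09, adjusted p = 0.937). Slc30a1, the zinc exporter of the plasma membrane and a target of MTF-1, was at 30.5, 51.4, 32.6, 37.6 and 28.7 CPM in control replicates 1 to 5. In cold replicates 1 to 5 it was at 29.5, 29.8, 27.8, 31.7 and 36.7 CPM, so control replicate 2 and cold replicate 5 were the highest of their groups here too. Its log2 fold change was -0.22 (SE 0.15, adjusted p = 0.328), and leaving out control replicate 2 gave -0.07 (adjusted p = 0.720), leaving out cold replicate 5 -0.29 (adjusted p = 0.206).

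Per length, Slc30a9 made up most of the SLC30 transcripts. Its share of the family's summed CPM per kb was 55.1 ± 3.28% in control and 59.8 ± 1.81% in cold libraries (SD, n = 5). Slc30a5 followed with 19.6 ± 2.66% and 18.4 ± 1.17%, and Slc30a1 with 8.96 ± 2.06% and 7.02 ± 0.382%. The family's sum was 84.6 ± 4.43 CPM per kb in control and 92.9 ± 5.45 in cold libraries.

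In the SLC39 family, 11 of 14 members were tested and none was called by edgeR, DESeq2 or limma-voom, with a median log2 fold change of -0.01; at an unadjusted p under 0.05, 3 were lower and 0 higher. Slc39a7, which releases zinc from the endoplasmic reticulum and Golgi, made up 32.5 ± 2.05% of the family's summed CPM per kb in control and 32.9 ± 1.56% in cold libraries. Its log2 fold change was -0.06 (SE 0.08, adjusted p = 0.640), with an interval from -0.22 to 0.11. Slc39a1, a zinc importer of the plasma membrane, held the next share, 22.6 ± 1.29% and 20.4 ± 2.25%. It was at 62.9, 66.7, 72.4, 76.5 and 69.3 CPM in control replicates 1 to 5 and at 65.1, 59.0, 60.6, 62.8 and 49.4 CPM in the cold ones, where only cold replicate 1 lay within the control range. Its log2 fold change was -0.23 (SE 0.09, adjusted p = 0.0967). The family's sum was 131 ± 3.57 CPM per kb in control and 124 ± 3.66 in cold libraries.

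**Figure D5:**
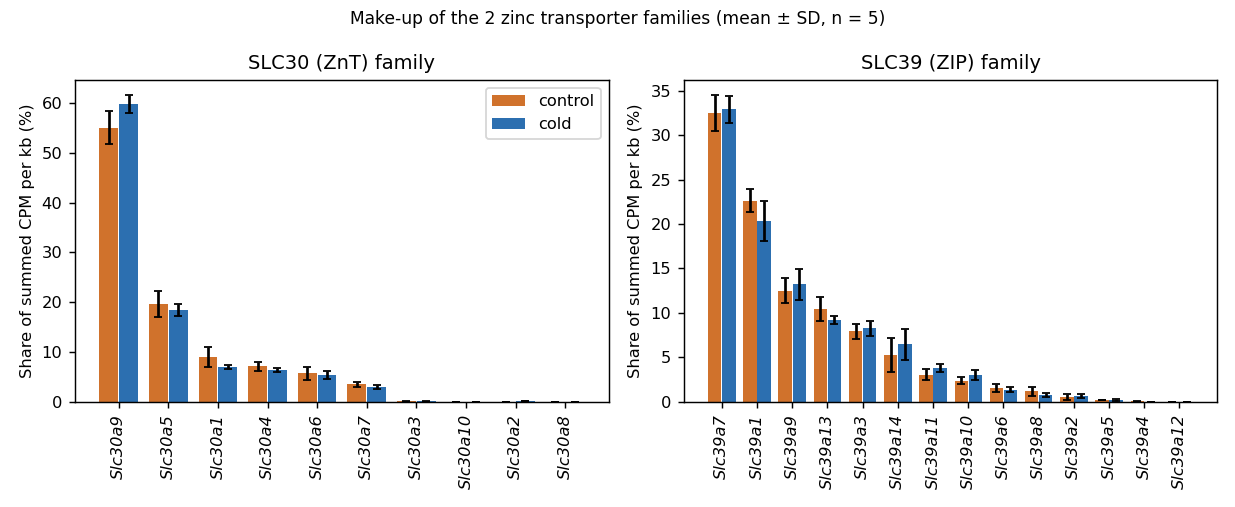
Share of each gene in the summed CPM per kb of its family (y axis, percent) for the SLC30 genes (left) and the SLC39 genes (right), as bars for the mean and error bars for the SD of 5 libraries. Slc30a9 makes up 55.1% of the first family in control and 59.8% in cold libraries, and Slc39a7 32.5% and 32.9% of the second.

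Slc39a13, a zinc transporter of intracellular vesicles needed for connective tissue, was at 33.3, 26.1, 32.2, 34.5 and 36.1 CPM in control replicates 1 to 5 and at 25.2, 27.7, 28.1, 26.6 and 28.2 CPM in the cold ones. Control replicate 2 lay among the cold libraries, and the other 4 controls lay above all of them. The log2 fold change was -0.26 (SE 0.10, adjusted p = 0.0939). Without control replicate 2 it was -0.33 (adjusted p = 0.0180), and without that library and cold replicate 5 it was -0.34 (adjusted p = 0.0169), both calls.

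Slc39a14 and Slc39a8 are the ZIP proteins that also carry manganese and other metals. Slc39a14 was at 26.9, 55.9, 34.2, 27.5 and 26.0 CPM in control replicates 1 to 5 and at 29.2, 36.5, 32.4, 42.5 and 57.0 CPM in the cold ones, with its highest values in the same 2 libraries as Mt2. Its log2 fold change was 0.21 (SE 0.23, adjusted p = 0.556), with 0.46 (adjusted p = 0.0848) without control replicate 2, 0.04 (adjusted p = 0.915) without cold replicate 5 and 0.29 (adjusted p = 0.125) without both. Slc39a8 was at 3.62, 9.41, 5.05, 4.21 and 4.54 CPM in control replicates and at 2.23, 2.95, 4.70, 2.85 and 3.74 CPM in the cold ones. The groups overlapped, control replicate 2 was the highest library, and the log2 fold change was -0.70 (SE 0.29, adjusted p = 0.113), or -0.40 (adjusted p = 0.285) without that library. The other ZIP genes had adjusted p-values of 0.238 to 0.975. They were Slc39a9 of the Golgi (0.01), Slc39a3 of the plasma membrane (-0.01), Slc39a11 (0.22), Slc39a10 (0.27), Slc39a6 (-0.28) and Slc39a2 (0.21), with log2 fold changes in parentheses. Slc39a2 rested on 93 counts over all 10 libraries, and its interval ran from -0.80 to 1.22; without control replicate 2, where it had 1 count, its value was -0.09.

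Of the copper genes, 5 of 6 were tested and none was called by edgeR, DESeq2 or limma-voom, with a median log2 fold change of 0.06; at an unadjusted p under 0.05, 1 was higher (Atox1) and 1 lower (Ccs). Slc31a1, the copper importer CTR1, had 72.9 ± 4.59 CPM in the control group and 75.9 ± 5.43 CPM in the cold group. Its log2 fold change was 0.06 (SE 0.08, adjusted p = 0.644), with an interval from -0.11 to 0.23. Slc31a2, its relative CTR2, differed by -0.02 (SE 0.15, adjusted p = 0.923), and the copper pump gene Atp7a by 0.14 (SE 0.14, adjusted p = 0.524).

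The 2 copper chaperones had estimates of opposite sign. Atox1, which hands copper to the pumps, was at 116, 121, 116, 136 and 127 CPM in control replicates 1 to 5 and at 147, 140, 150, 132 and 126 CPM in the cold ones. Cold replicates 1 to 3 lay above every control, and the log2 fold change was 0.17 (SE 0.08, adjusted p = 0.132). Ccs, which hands copper to superoxide dismutase 1, was at 48.6, 72.8, 51.5, 59.5 and 54.1 CPM in control replicates and at 50.3, 45.2, 47.0, 48.7 and 47.9 CPM in the cold ones. The cold libraries lay close together and overlapped the lowest control, control replicate 1. The log2 fold change was -0.26 (SE 0.11, adjusted p = 0.101), and without control replicate 1 it was -0.32 (adjusted p = 0.0473), a call.

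The 10 members below the filter are genes best known from other tissues. Slc30a8 of insulin granules, Slc30a10, a manganese exporter, Slc39a12 and Mt4 had no count in any library. Slc30a3 of synaptic vesicles had 1 count in each group, and Slc39a4, the zinc importer of the gut, had 1 in control and 0 in cold libraries. Slc39a5 had 12 counts in control and 14 in cold libraries, and Atp7b, the copper pump of liver, had 0 and 5. Slc30a2, which loads zinc into vesicles, had 0 counts in all control libraries and 1 to 3 in each cold library, 10 in all. With no filter on low counts it was called higher by edgeR (adjusted p = 0.0315), on those 10 counts.

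Genes that use the metals were read from lists drawn up with earlier results of these data known. Of the list of copper chaperones and copper enzymes, 20 genes were tested, 3 were called higher and 2 lower, with a median log2 fold change of 0.03. Among all genes tested, 10.2% were called higher and 9.14% lower, with a median of -0.02. Loxl1, a copper-dependent lysyl oxidase that crosslinks elastin, rose from 34.3 ± 4.67 to 95.6 ± 13.3 CPM (log2 fold change 1.48, adjusted p = 1.1e-05), with every cold library above every control. Steap3, a metalloreductase, rose by 0.58 on the log2 scale (adjusted p = 0.0196). Aoc3, a copper amine oxidase of adipocytes, fell from 296 ± 49.6 to 192 ± 27.6 CPM (log2 fold change -0.62, adjusted p = 0.00401). Steap4, a metalloreductase of adipocytes, fell from 191 ± 36.2 to 120 ± 22.8 CPM (log2 fold change -0.67, adjusted p = 0.00855), with every cold library below every control.

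Of the zinc-responsive genes named for MTF-1, 7 were tested, among them Mt1, Mt2 and Slc30a1. The called genes were 3 of the 4 that are no members, 2 higher and 1 lower, beside 10.2% and 9.14% of all genes tested. Gclc, the catalytic subunit of the enzyme that starts glutathione synthesis, fell from 44.0 ± 6.49 to 26.7 ± 4.82 CPM (log2 fold change -0.73, adjusted p = 0.00324), with every cold library below every control. Hif1a, which encodes the oxygen-regulated factor HIF-1α, rose by 0.39 (adjusted p = 0.0196) and Sepw1, a selenoprotein gene, by 0.28 (adjusted p = 0.0464) on the log2 scale. In the glucocorticoid-responsive list 13 genes were tested, Mt1 and Mt2 included. Of them 2 were called higher and 1 lower, beside the same shares of all genes. Dusp1 rose by 0.96 (adjusted p = 5.8e-05) and Pdk4 by 0.69 (adjusted p = 0.0362), and Angptl4 fell by 0.79 (adjusted p = 0.0405), all on the log2 scale. Of 8 acute-phase and interleukin-6 responsive genes tested, Mt1, Mt2 and Slc39a14 included, edgeR called 0 in either direction. Orm1 and Mt2 passed an unadjusted p under 0.05, as did 34.1% of all genes tested. The smallest p in that list was that of Orm1, a plasma protein gene, with a log2 fold change of 0.54 (adjusted p = 0.0614).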

How the data were processed

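The main table, as the authors deposited it, gives whole-number read counts for each RefSeq gene in 10 libraries and the bases over which the gene was counted. The submitters' processing notes name STAR, edgeR and the build mm9. How reads were counted, with what strand setting, is not given in the sources used here. A second deposited table holds the authors' own comparison, with a log2 fold change, log2 CPM, raw p-value and adjusted p-value in columns so named. Of the 20295 rows, 27 with a repeated symbol or one turned into a date kept their RefSeq identifier as name, and 0 columns of single libraries were left unused.

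Counts were fitted with edgeR 4.0.16 (R 4.3.3), by the quasi-likelihood F test with TMM scaling and filterByExpr, cold against control without covariates. P-values are two-sided, adjusted by Benjamini and Hochberg over 11229 genes, with a threshold of 0.05. The common biological coefficient of variation was 0.166. An SE is the log2 fold change divided by the square root of F. The fit was tested on simulated counts. Differences between single libraries used log2 CPM with a prior count of 2. Labels name separate mice, and chi-square per degree of freedom between replicates was 3.2 to 36.1, above sampling noise.

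The members, the 4 lists of related genes and 12 lists of cell type markers were chosen with earlier results of these data known. For the members the rule used the gene symbol only, and their values were no part of it. Every member is accounted for. From each related list, up to 4 called genes with the smallest p are named, or 1 where none was called, and other genes only where a result turns on them. Alternatives were RLE or no scaling factors, library totals without the 20 most abundant genes, omitting the filter or asking for a CPM above 1 in 5 libraries, limma-voom (limma 3.58.1), DESeq2 1.42.0, a replicate block and leaving out libraries. Gene coordinates are those of the count table in mm9, with starts raised by 1; sequences and their coordinates are of GRCm38, and the builds were not mixed.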

Additional observations from a re-analysis of the deposited data

Results flagged for a closer look

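In 7 of the 52 groups of 5 libraries examined (26 genes in each group), 1 library lay farther from the others than Dixon's 95% limit of 0.71 for the gap over the range, where chance flags about 1 in 20 groups. Mt2 did so in both groups, at 239 CPM in control replicate 2 and 169 CPM in cold replicate 5. Mt1 was at 391 CPM in cold replicate 5. Control replicate 2 also stood out for Slc39a14, at 55.9 CPM, and for Slc39a8, at 9.41 CPM. Slc31a2 was at 18.1 CPM in control replicate 1, where the other controls lay between 12.0 and 13.6. Atp7a was at 22.5 CPM in cold replicate 1, with cold replicates 2 to 5 between 18.9 and 19.5. So 5 of the 7 were in control replicate 2 or cold replicate 5.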

How the results depend on the processing

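The count of 1 member higher in cold was 0 with a CPM above 1 in 5 libraries, 0 with a replicate block and 0 without control replicate 2 and cold replicate 5, and 0 to 1 when single libraries were left out; with no filter the 1 gene was Slc30a2 and not Slc30a9. The count of 0 lower was 1 by limma-voom (Mt2), 1 with the block (Mt2), 3 without both libraries (Mt1, Mt2 and Slc39a13), and 0 to 2 when single libraries were left out. Calls over all genes changed with the setting too. Without both libraries 1547 of 11358 genes were called higher and 1327 lower, beside 0 and 3 of the 26 members. By limma-voom 1127 of 11229 genes were higher and 1008 lower. Without cold replicate 5, where 2 members were lower, 1310 of 11411 genes were higher and 1131 lower. Of 494 values of single members under the alternatives, 437 kept direction and call, 12 lost the call, 10 gained it and 35, of 9 genes, changed sign. Without both libraries the log2 fold changes that changed sign were -0.21 for Slc39a2, -0.10 for Slc30a6, 0.024 for Mtf2, 0.032 for Slc30a4, 0.0080 for Slc31a2, -0.12 for Slc39a9 and -0.0044 for Slc31a1. With no scaling factors they were 0.015 for Mtf2, 0.021 for Slc30a4, 0.012 for Slc31a2 and 0.020 for Slc39a3, and without the 20 most abundant genes -0.0015 for Slc39a9. Leaving out single libraries gave -0.085 to 0.475 for Slc39a2, -0.080 to 0.113 for Slc30a6, -0.065 to 0.025 for Mtf2, -0.044 to 0.040 for Slc30a4, -0.067 to 0.101 for Slc30a5, -0.080 to 0.075 for Slc31a2, -0.075 to 0.068 for Slc39a9 and -0.076 to 0.029 for Slc39a3. The cause was not tested. Replicate numbers are shared by the groups and are not said to pair the mice. Deviations of same-numbered libraries correlated at -0.25 to 0.19. For control replicates 1 and 4 the cold library that correlated best had the same number. Correlations this weak cannot settle whether mice were paired. Over all genes the block gave 981 higher and 808 lower. Depth limits Slc39a2 and the members below the filter.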
